A study of Danio rerio with 5 samples.

Results

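The cytosolic ribosomal protein genes were described across single GFP+ eye cells of developing zebrafish. Members were all gene symbols in the deposited feature tables that start with rpl or rps followed by a digit, together with rplp0, rplp1, rplp2 and rpsa, and without the rps6k kinases. This gave 81 of 15413 symbols, 46 of the large and 35 of the small subunit. All 81 had at least 1 unique molecular identifier (UMI, a tag that marks 1 captured RNA molecule), and together they held 21779424 of 57714560 UMIs, or 37.7%.

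The ribosome is the particle that translates mRNA into protein, built of a small subunit that reads the message and a large subunit that joins the amino acids. Its cytosolic protein genes are among the most strongly expressed genes of growing cells, and most of them are needed in equal amounts. In vertebrates their mRNAs begin with a terminal oligopyrimidine tract, through which the mTOR pathway controls their translation, and a few of them have paralogs that can take the place of the main copy.

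The cells came from eyes of Tg[foxc1b:GFP] embryos on the AB background, in which a foxc1b driven GFP labels periocular and anterior segment mesenchyme, and they were sorted for GFP at 48, 72, 96, 120 and 144 hours post fertilization (hpf). Embryos were pooled and had been kept in phenylthiourea, which blocks pigment formation, and there was no other treatment or genotype. Each time point held 2 libraries, A and B, so that 10 libraries with 12234 cells were analysed, and the library was taken as the replicate. According to the table of cells, 48 hpf A and 72 hpf A were made with V2 chemistry and the other 8 libraries with V3. Median UMIs per cell ranged over libraries between 760 and 3709, and cells between 102 in 144 hpf B and 2759 in 120 hpf B. Of the 102 barcodes of 144 hpf B, 61 were also found in 48 hpf B, whereas any other pair of libraries shared at most 19 barcodes.

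Cells were grouped by marker genes that are not ribosomal, and a name stands only for cells that carry those markers. A group was given to 9334 cells (76.3%), and 2900 cells stayed without one. The groups were retinal progenitor-like (3774 cells), annular ligament-like (1494), basal epithelial-like (1410), superficial epithelial-like (823), retinal neuron-like (757), mesenchymal-like with stroma or cartilage markers (642), Mueller glia-like (253), mural or vascular-like (89) and pigment-like cells (87). The labels call the sorted tissue anterior segment mesenchyme, and most of the grouped cells carried epithelial or retinal markers instead. The Mueller glia-like cells also carried the retinal progenitor list at 69980 CPM (UMIs scaled to a common library total), against 74610 CPM for their own list. The retinal progenitor-like cells themselves carried the progenitor list at 17720 CPM. The name Mueller glia-like was given by the list that led under the scoring rule, and these cells carried both sets of genes. Libraries with fewer than 10 cells of a group were left out for that group.

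The share of a cell's UMIs that fell on the 81 genes differed between retinal groups. It averaged 6.62% ± 1.47 in Mueller glia-like cells (SD, n = 4 libraries), 21.2% ± 9.78 in retinal neuron-like cells (n = 6) and 31.8% ± 9.31 in retinal progenitor-like cells (n = 9). Pigment-like cells stood at 9.42% in 72 hpf B and 9.83% in 96 hpf A. Among the remaining groups it averaged 21.7% ± 6.47 in mural or vascular-like cells (n = 4), 26.1% ± 5.04 in superficial epithelial-like cells (n = 10), 29.0% ± 11.3 in mesenchymal-like cells (n = 9), 32.5% ± 10.4 in annular ligament-like cells (n = 8) and 26.9% ± 7.16 in basal epithelial-like cells (n = 9). Without 144 hpf B the superficial mean was 26.4%. Apart from the Mueller glia-like and pigment-like cells at the low end, the ranges of the groups over libraries overlapped.

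**Figure D1:**
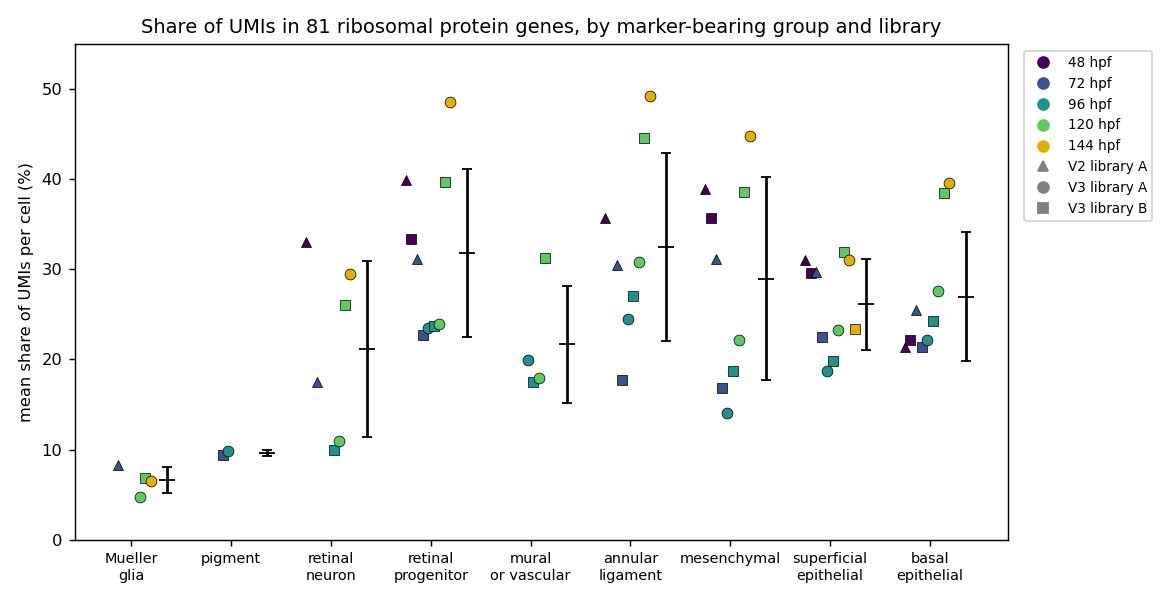
Mean share of UMIs per cell in ribosomal protein genes (percent, vertical axis) for each marker-bearing group (horizontal axis). Each point is a library with at least 10 cells of the group, coloured by age, with the shape giving chemistry and library, and black bars give the mean ± SD over libraries. The Mueller glia-like points lie between 4.74% and 8.33%, below every retinal progenitor-like point (22.7% to 48.6%).

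Mueller glia, the support cells of the retina, were compared with retinal progenitors within the libraries that held both. Their share was 8.33%, 4.74%, 6.83% and 6.55% in 72 hpf A, 120 hpf A, 120 hpf B and 144 hpf A, against 31.1%, 23.9%, 39.7% and 48.6% in retinal progenitor-like cells of the same libraries. The groups did not overlap, and the mean difference was -29.2 percentage points ± 10.3 (SD, n = 4, lower in 4 of 4). Retinal neuron-like cells of the same libraries lay between them, and Mueller glia-like cells fell below these by 14.4 points ± 7.96, again in 4 of 4. Depth moved with the groups: median UMIs per cell in Mueller glia-like cells were 2674, 968, 1321 and 1022, against 3439, 1233, 5974 and 5534 in progenitor-like cells, lower in each library. These totals include the members themselves. Without them the medians were 2549, 894, 1231 and 965, against 2272, 944, 3613 and 2889, lower in 3 of 4 libraries. Among cells of 1000 to 3000 non-ribosomal UMIs, the share was 6.74% against 37.8% in 120 hpf B, and 7.63% against 47.4% in 144 hpf A. Values of 72 hpf A and 120 hpf A in this band are not given here, and the part of depth in the difference was not tested.

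Gene by gene, the UMIs of each group were summed per library and tested across all genes with edgeR's quasi-likelihood test, the library as a block and Benjamini-Hochberg adjustment at 0.05. In Mueller glia-like cells 78 of 79 tested members were lower and 0 higher than in retinal progenitor-like cells, where 33.0% of all genes tested were lower and 26.4% higher. The members' median log2 fold change was -3.04, against -0.29 for all genes. Without any scaling beyond the library total the members' median was -2.46 and the same number, 78, was called lower (20.9% of all genes lower, 34.5% higher). For 78 members all 4 libraries went the same way.

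The genes rplp1 and rplp2, which encode acidic proteins of the stalk that recruits elongation factors, stood near both ends of this range. For rplp1, the Mueller glia-like CPM were 2299, 886, 1609 and 1233, against 12063, 10119, 12272 and 13714 in progenitor-like cells of 72 hpf A, 120 hpf A, 120 hpf B and 144 hpf A. This gave a log2 fold change of -3.60 (SE 0.34, edgeR quasi-likelihood adjusted p = 3.65e-08). For rplp2 the CPM were 1594, 551, 894 and 825, against 2590, 1203, 2014 and 2272. Its log2 fold change of -1.64 (SE 0.31, edgeR adjusted p = 0.000156) was the smallest decrease of a called member. The gene rps9, whose protein lines the mRNA path of the small subunit, and rpl5a, whose large subunit protein binds Mdm2 in mammals, were lower, both with a log2 fold change of -3.41.

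The 1 member that did not pass was rps27l, a paralog of rps27 that p53 induces in mammals. It had 83.9, 71.8, 142 and 115 CPM in Mueller glia-like cells, against 240, 164, 76.4 and 83.1 CPM in progenitor-like cells (log2 fold change -0.62, SE 0.40, edgeR adjusted p = 0.19). These values rest on 5, 3, 23 and 13 UMIs, and the libraries did not agree in direction. The largest fitted decreases, of rpl22l1 (-4.09) and rpl6 (-3.75), rest on 2, 0, 1 and 2 UMIs and on 0, 0, 0 and 2 UMIs in Mueller glia-like cells and depend on the prior count of the fit.

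Retinal neuron-like cells, which carried photoreceptor, bipolar, amacrine or horizontal, or ganglion cell markers, also had a lower share than progenitor-like cells. The values were 33.1%, 17.5%, 9.93%, 11.0%, 26.1% and 29.5% in 48 hpf A, 72 hpf A, 96 hpf B, 120 hpf A, 120 hpf B and 144 hpf A, against 39.9%, 31.1%, 23.7%, 23.9%, 39.7% and 48.6% in progenitor-like cells. The difference was -13.3 points ± 3.89 (SD, n = 6, lower in 6 of 6). It was nearest to 0 at 48 hpf A and farthest from it at 144 hpf A. The means of the 4 kinds of neuron come from different libraries and were 26.0% for photoreceptor-like (n = 3), 25.0% for bipolar-like (n = 2), 22.2% for amacrine or horizontal-like (n = 3) and 22.9% for ganglion-like cells (n = 5), with library SDs of up to 11.8 points. Within 120 hpf B these shares were 31.4%, 23.0%, 26.9% and 24.9%, and within 144 hpf A they were 34.2%, 26.9%, 27.9% and 28.5%, with photoreceptor-like cells highest in both. Neurons named by clustering without the members gave a smaller difference of -8.18 points.

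All 80 tested members were lower in retinal neuron-like than in progenitor-like cells, where 38.2% of all genes were lower and 23.4% higher. Their median log2 fold change was -1.36 against -0.25 for all genes, and scaled by library totals alone 74 were lower with a median of -0.73 (21.2% of all genes lower, 40.7% higher). The decrease covered both subunits. The gene rpl4, whose protein lines the exit tunnel, had 2042, 993, 538, 517, 842 and 990 CPM in neuron-like cells, against 2937, 2408, 1900, 2000, 1524 and 2085 CPM in progenitor-like cells (log2 fold change -1.76, SE 0.18, edgeR adjusted p = 2.21e-08). The gene rplp1 fell by 1.61, rps3a by 1.60 and rpl12, at the base of the stalk, by 1.60 on the log2 scale, each in 6 of 6 libraries.

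The leading decreases in neurons were those of paralogs. The gene rps27l had 29.2, 103, 0, 0, 25.0 and 19.9 CPM in neuron-like cells, against 176, 240, 179, 164, 76.4 and 83.1 CPM in progenitor-like cells (log2 fold change -2.61, SE 0.31, edgeR adjusted p = 1.69e-07). The gene rpl7l1, a relative of rpl7, had 29.2, 68.5, 0, 25.8, 65.2 and 34.5 CPM, against 246, 228, 145, 127, 153 and 127 CPM (log2 fold change -2.39, SE 0.27, edgeR adjusted p = 1.09e-07). The neuron values of both genes rest on between 0 and 47 UMIs a library.

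Ribosome biogenesis and translation factor genes were followed beside the members. In Mueller glia-like cells 21 of 21 tested biogenesis genes were lower than in progenitor-like cells, with npm1a, a nucleolar chaperone, at -4.35 and dkc1, the pseudouridine synthase dyskerin, at -3.71. In neuron-like cells 22 of 22 were lower, with dkc1 at -3.75. Of 35 translation factor genes, 30 were lower and 2 higher in Mueller glia-like cells. The 2 higher were pabpc1b, a poly(A) binding protein (3.24), and eif4ebp2, a repressor of cap-dependent initiation (0.91). In neuron-like cells 31 were lower and 1, pabpc1b (1.51), was higher. Mitochondrial ribosomal protein genes, encoded in the nucleus, were lower for 48 of 68 in Mueller glia-like and 52 of 70 in neuron-like cells.

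Against basal epithelial-like cells, the direction of the members depended on the scale. Retinal progenitor-like cells had a mean share 4.91 points ± 6.94 above that of basal cells of the same libraries (higher in 7 of 9), and annular ligament-like cells one 4.95 points ± 5.37 above it (higher in 7 of 8). The fit with TMM scaling, which sets the bulk of genes equal between groups, called 78 of 80 members lower and 0 higher in progenitor-like cells (33.9% of all genes lower, 32.6% higher). It called 42 lower and 0 higher in annular ligament-like cells (22.4% lower, 24.3% higher). Library totals alone called 34 of 80 members higher and 1 lower in progenitor-like cells, beside 66.8% of all genes higher and 16.6% lower. They called 56 higher and 0 lower in annular ligament-like cells, beside 60.6% and 11.6%.

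The gap between both scales is close to the shift of the median gene, whose mean log2 CPM ratio was 1.09 in progenitor-like and 0.65 in annular ligament-like cells over basal cells. The members' own medians on this scale were 0.27 and 0.23, above 0 but below the typical gene. The 10 leading other genes, taken in each library on its own, held on average 10.5% of the UMIs of progenitor-like cells, against 23.5% in basal cells, where the keratins krt91 and krt4 were among the highest. The part of these genes in the difference was not tested.

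**Figure D2:**
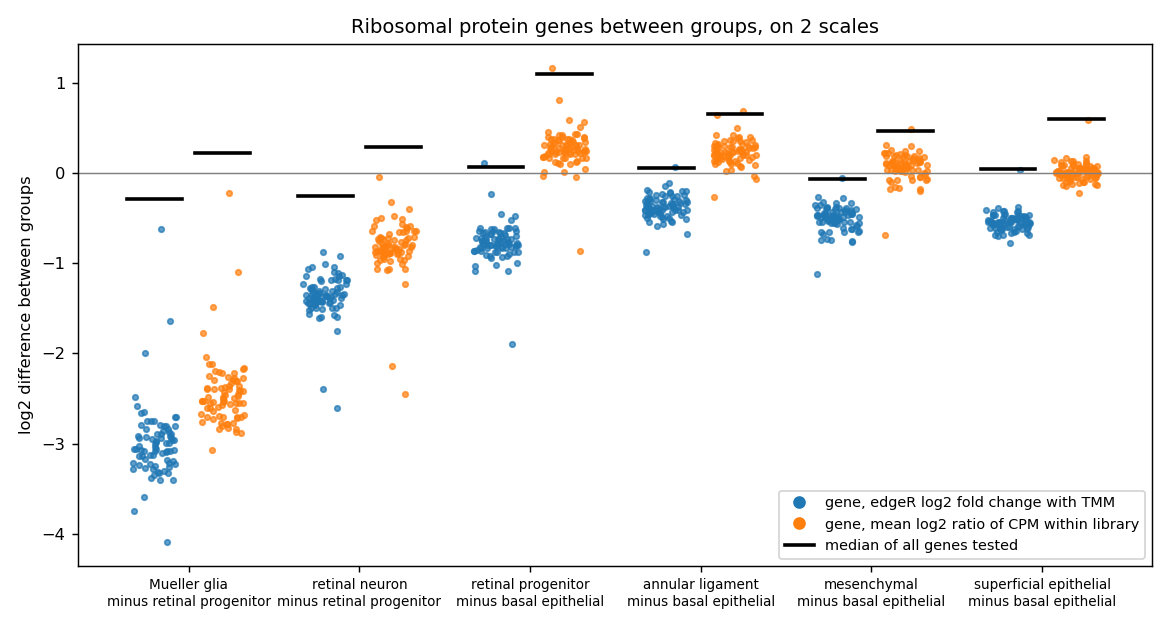
Log2 difference of each ribosomal protein gene (vertical axis, 1 point a gene) for each comparison of groups (horizontal axis), with blue for the edgeR fit with TMM scaling, orange for the mean log2 ratio of CPM within libraries, and black lines for the median of all genes tested. Against basal epithelial-like cells the members lie mostly below 0 in blue and around or above 0 in orange, whereas Mueller glia-like and neuron-like cells lie below progenitor-like cells on both scales, with medians of -3.04 and -1.36 in blue and of -2.49 and -0.82 in orange.

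The gene rplp2 was lower on both scales in retinal progenitor-like cells. Its CPM averaged 2005 in progenitor-like and 3606 in basal epithelial-like cells, it was lower in 9 of 9 libraries, and its log2 fold change was -1.90 (SE 0.24, edgeR adjusted p = 1.01e-05). Its paralog rplp2l, which is outside the rule for members, went the other way, with 8288.5 CPM in progenitor-like and 5468.4 in basal cells. Reads may have been split between both genes. Further members named by the fit were rpl5a (-1.08), rpl23a (-1.02), rpl39 (-0.92) and rpl19 (-0.92). By CPM these were lower in only 2 to 5 of 9 libraries, and scaled by library totals rpl23a, rpl39 and rpl19 stood at 0.04, 0.13 and 0.14. Of the lists beside the members, 15 of 22 biogenesis genes and 44 of 69 mitochondrial ribosomal protein genes were higher in progenitor-like cells by the same fit, while 21 of 35 translation factor genes were lower.

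In annular ligament-like cells, a tissue of the iridocorneal angle, rplp2 again led the fit with -0.88 (SE 0.17, edgeR adjusted p = 0.000785). Further members named by the fit were rpl15 (-0.59), rps19 (-0.52), rpl5a (-0.51) and rpl11 (-0.48). The 42 calls depended on single libraries, since 16, 15 and 23 were left without 96 hpf A, 96 hpf B or 120 hpf A, 68 were made without 144 hpf A, and 26 without cells whose barcode another library also held. Scaled by library totals rpl15, rps19, rpl5a and rpl11 turned to 0.06, 0.13, 0.13 and 0.17.

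Superficial epithelial-like cells, the outer layer over the basal cells, differed from them by -0.53 points ± 6.42 on average, with a sign that turned with age. In the A and B libraries of 48 hpf, superficial cells were 9.63 and 7.51 points above basal cells, and in those of 72 hpf 4.17 and 1.06 points above. The differences were -3.38 and -4.37 points in both libraries of 96 hpf, -4.32 and -6.52 points in both of 120 hpf, and -8.57 points in 144 hpf A. All 4 earlier libraries were above 0 and all 5 later ones below it. Superficial values first fell, from 31.0% (48 hpf A) and 29.6% (48 hpf B) to 18.8% (96 hpf A) and 19.8% (96 hpf B). Those of 72 hpf lay at 29.7% (A) and 22.5% (B). Up to 96 hpf, basal values stayed within 21.4% to 25.5%. The turn between 72 and 96 hpf thus went with a lower superficial share. The later libraries lay above those of 96 hpf in both groups, but by unlike amounts. Superficial cells stood at 23.2% in 120 hpf A, 31.9% in 120 hpf B, 31.0% in 144 hpf A and 23.4% in 144 hpf B. Basal cells reached 38.4% and 39.6% in these libraries.

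**Figure D3:**
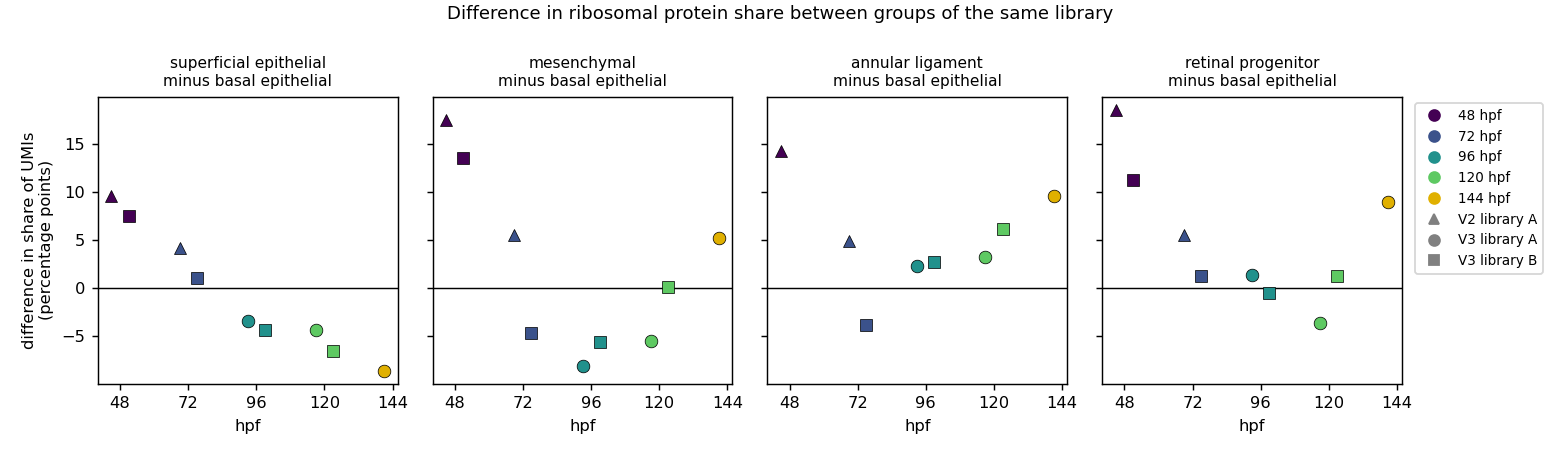
Difference in mean share of UMIs per cell (percentage points, vertical axis) between a group and basal epithelial-like cells of the same library, against age (hpf, horizontal axis), with 1 point a library and panels for superficial, mesenchymal, annular ligament and retinal progenitor-like cells. Superficial minus basal values lie above 0 at 48 and 72 hpf and below it from 96 hpf on.

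The change of this difference with age was tested in a fit with an interaction between group and age. Age entered this interaction as a linear term, which cannot show a fall followed by a rise of a difference. With TMM scaling 0 of 80 members passed (edgeR, 4.45% of all genes higher and 3.44% lower), and 79 slopes were below 0 with a median of -0.16 per day. The unadjusted edgeR p was under 0.05 for 33 of the 80 members, beside 918 of all 3661 genes tested. With library totals 54 of 80 passed, all as a fall with age (3.31% of all genes higher and 7.07% lower), with a median of -0.21 per day. In the other 4 comparisons tested this way 0 of 80 members passed on either scale. The shares of all genes that passed as higher and lower were 4.75% and 3.72% with TMM and 5.15% and 2.12% with library totals for progenitor-like, 1.25% and 0.29%, and 0.423% and 1.34%, for annular ligament-like, and 0.148% and 0.0493%, and 0.987% and 0.197%, for mesenchymal-like against basal cells. For neuron-like against progenitor-like cells they were 0.111% and 0.111%, and 0.155% and 0.111%. Over all ages together, TMM called 78 of 80 members lower in superficial than in basal cells (25.5% of all genes lower, 25.6% higher). Library totals called 0 lower and 1 higher (10.9% and 57.4%), and the median CPM ratio of the members was 0.00 on the log2 scale, beside 0.59 for all genes.

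The gene rps2, which encodes a small subunit protein near the mRNA entry, was the leading member of that fit (-0.77, SE 0.13, edgeR adjusted p = 0.000161). Its CPM in superficial cells were 9083 and 6003 at 48 hpf A and B and 8288 in 144 hpf A, against 7520, 5581 and 11408 CPM in basal cells of the same libraries. Superficial cells were thus higher at 48 hpf and lower at 144 hpf. The other members named by the fit were rps3a (-0.70), rpl23a (-0.69), rpl11 (-0.69), rps20 (-0.67) and rpl5a (-0.66).

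Mesenchymal-like cells, with stroma or cartilage markers, differed from basal cells by 2.04 points ± 9.07 (higher in 5 of 9). They were 17.5 and 13.5 points above basal cells at 48 hpf, 8.07 and 5.53 points below them at 96 hpf, and 5.20 above in 144 hpf A. With TMM 53 of 80 members were lower and 0 higher (27.3% of all genes lower, 23.6% higher), and with library totals 0 were lower and 2 higher (12.8% and 50.1%). The TMM count fell to 9 without 96 hpf B and to between 14 and 23 without 72 hpf B, 96 hpf A, 120 hpf B or 144 hpf A. Rpl11 (-0.75) and rpl19 (-0.73) led, followed by rps2 (-0.66), rpl7 (-0.61), rpl12 (-0.55) and rpl26 (-0.49).

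Age was described next within each group. Over all sorted cells the mean share in the A libraries, by age, was 36.5%, 28.5%, 21.0%, 24.5% and 41.4%. In the B libraries it was 32.0%, 19.8%, 22.6%, 35.2% and 26.0%. The libraries of 1 age differed by between 1.58 points at 96 hpf and 15.5 points at 144 hpf. Of 80 members 0 had a trend with age over all sorted cells (edgeR, 0.674% of all genes higher and 0.371% lower with age), and DESeq2 called 6. The unadjusted edgeR p was under 0.05 for 25 of the 80 members, beside 1380 of all 8896 genes tested. In retinal progenitor-like cells 0 of 80 passed as well (0.086% higher and 0.0688% lower), and DESeq2 called 0. Here the unadjusted edgeR p was under 0.05 for 8 of the 80 members, beside 471 of all 5815 genes tested. The mean share in progenitor-like cells by age was 39.9%, 31.1%, 23.5%, 23.9% and 48.6% in the A libraries. In the B libraries of 48, 72, 96 and 120 hpf it was 33.4%, 22.7%, 23.7% and 39.7%. Age entered these fits as a linear term, which cannot show a fall followed by a rise.

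In basal epithelial-like cells 59 of 80 members rose with age and 0 fell (12.3% of all genes rose, 11.8% fell), with a median slope of 0.36 per day on the log2 scale. With library totals 39 rose (5.32%). With the batch as a block, which leaves 2 residual degrees of freedom, 0 passed (edgeR), and the median slope was 0.38. The unadjusted edgeR p was under 0.05 for 45 members, and the share of all genes at this level is not given here. The CPM of rpl5a by age were 1113, 1357, 2324, 2459 and 3384 in the A libraries and 1437, 1793, 2122 and 2812 in the B libraries. The highest value of each series was that of the oldest embryos, and the slope was 0.51 per day (SE 0.08, edgeR adjusted p = 0.000965). The gene rps10, whose protein also lies near the mRNA entry, had a slope of 0.52 and ran between 2388 CPM in 48 hpf A and 7821 CPM in 144 hpf A. Only 24 of the 59 calls were made without 144 hpf A. The gene rpl9 depended on this library most, with 5526 CPM there and 912 to 2738 CPM in the others, and its slope of 0.57 was 0.16 without it. Median UMIs in basal cells were 13027 in 120 hpf B and 16446 in 144 hpf A, the libraries of highest basal share. They ran between 1472 and 8752 in the other libraries used, and the part of depth was not tested.

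Of the lists beside the members, 23 of 35 translation factor genes and 14 of 22 biogenesis genes rose with age in basal cells. Among them were eif4ebp3 (1.30 per day), eef1g, a subunit of the elongation factor complex (0.64), and nop53, a late assembly factor of the large subunit (0.95).

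In annular ligament-like cells 56 of 80 members rose and 0 fell (8.25% of all genes rose, 5.17% fell), with a median slope of 0.55 per day. With library totals 18 rose (1.88%). With the batch as a block 0 passed (edgeR), and the median slope was 0.65. The unadjusted edgeR p was under 0.05 for 68 members, and the share of all genes at this level is not given here. The CPM of rps10 by age were 3588, 3334, 5321, 5912 and 10442 in the A libraries and 3779, 5704 and 8795 in the B libraries of 72, 96 and 120 hpf. The share was again highest in 120 hpf B and 144 hpf A, at 44.6% and 49.2%, with median UMIs of 4484 and 4059. Median UMIs ran between 1243 and 2583 in the other libraries used, and the part of depth was not tested. The count of 56 dropped to 7 without 144 hpf A, 23 without 72 hpf A and 35 without 72 hpf B, and was 72 without both V2 libraries.

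The members with the steepest slopes there were rpl6 (1.13), rpl14 (1.03), rpl31, near the exit tunnel (0.91), and rpl13a (0.84). The gene rpl14 had 1038 CPM in 48 hpf A and 1164 CPM in 72 hpf A, both V2, and 3063, 3781, 4545, 4927, 5384 and 6407 CPM in the V3 libraries by age. At 72 hpf rpl14 thus had 1164 CPM in the V2 library and 3063 CPM in the V3 library of the same age. Within the V3 libraries its slope was 0.91. The slopes of rpl31 and rpl13a in V3 libraries were 0.87 and 1.08. The counts of rpl6 ran between 1 and 173 UMIs a library, so that its slope is little supported by counts.

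In superficial epithelial-like cells 15 of 80 members rose with age and 0 fell (10.4% of all genes rose, 7.78% fell). With library totals 0 rose and 1 fell (3.27% and 30.3%), and 0 were called without the V2 libraries. With the batch as a block 0 passed (edgeR), 0 had an unadjusted p under 0.05, and the median slope was 0.23. Leaving out single libraries gave between 1, without 48 hpf A or 144 hpf B, and 30, without 48 hpf B. The count was 2 without 72 hpf A, 3 without 120 hpf A or 144 hpf A, 4 without 72 hpf B, 8 without 120 hpf B and 5 without cells with a shared barcode. Rpl6 (0.60), rpl9 (0.43), rpl5a (0.38) and rps10 (0.36) led. Of these, rpl6 had a low level, with a mean of 45.1 CPM in superficial cells of the 9 libraries compared with basal cells. It has 2 RefSeq records in the feature table, so its level is uncertain.

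In 3 batches an A library had been run together with the B library of the preceding age, which gave steps of age (to 96, 120 and 144 hpf) within a batch. These batch names come from the table of each age, and the joined table gives 96 hpf A another one, so the step to 96 hpf may cross batches. In annular ligament-like cells the share was higher at the later age in each, by 6.82, 3.79 and 4.63 points, with a higher CPM for 76, 60 and 60 of 80 members. Basal epithelial-like cells gave 0.71, 3.36 and 1.19 points, with 73, 69 and 44 of 80 members higher. Superficial cells gave -3.73, 3.40 and -0.86 points, mesenchymal-like cells -2.73, 3.46 and 6.23, and progenitor-like cells 0.80, 0.24 and 8.89. Each step is 1 library against 1 and has no replicate check. The share of all genes with a higher CPM in a step is not given here. The counts of members therefore cannot be read as particular to the members.

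Most members were expressed at a high level. UMI counts mark 1 end of a transcript and were not scaled by gene length. The median of the mean CPM over members was 4321, and 74 members lay above 1000 CPM. The highest were rplp1 (9149), rps20 (7826), rps2 (7722), rplp0, the core of the stalk (7390), and rpl39, a small protein of the exit tunnel (6745), which together took 11.5% of the members' UMIs. Rpl39 ranged only between 5918 and 7720 CPM over libraries, rplp0 between 4996 and 13551.

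**Figure D4:**
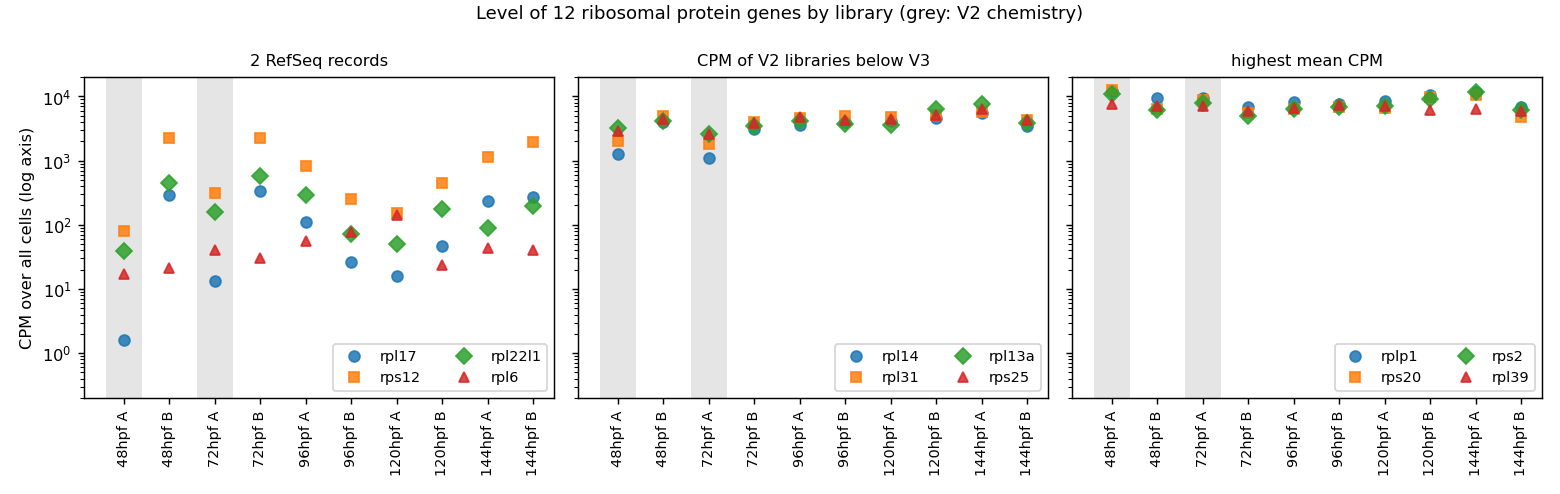
CPM over all cells (log axis) of 12 ribosomal protein genes in the 10 libraries (horizontal axis, V2 libraries shaded grey), in panels for genes with 2 RefSeq records, genes lower in both V2 libraries than in every V3 library, and genes of highest mean. Rpl17 runs between 1.61 and 336 CPM and rps12 between 79.3 and 2261, while the genes of highest mean stay between 4821 and 13551 CPM.

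Apart from rps8b, the 6 members with 2 RefSeq records in the feature table held the most variable ones. The gene rps8b is among the 75 members with 1 record, had 5 UMIs in all and has no ratio, as its lowest CPM was 0. Of the 6, 5 varied 5.22-fold or more over libraries, above each other member with 1 record (at most 5.08-fold), and rps24 did not. The highest CPM over the lowest was 11.4 as a median over these 6, against 2.32 over the members with 1 record other than rps8b. Rpl17 ran between 1.61 CPM in 48 hpf A and 336 CPM in 72 hpf B, rps12 between 79.3 and 2261, and rpl22l1 between 39.1 and 566. Each of the 3 was lowest in 48 hpf A and highest in 72 hpf B or 48 hpf B. The others, rpl6, rpl29 and rps24, varied 8.32-fold, 5.22-fold and 1.90-fold. Reads that match both records of a gene can be lost in counting, so the levels of these 6 genes are uncertain.

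Both V2 libraries were below all 8 V3 libraries for 8 of 80 members (6.75% of all genes with at least 100 UMIs) and above them for 9 (12.6%). Among those below were rpl17, rpl14, rpl31, rps25, rps23, rpl13a and rpl5a. Rpl14 had 1100 to 1274 CPM in V2 and 3148 to 5583 in V3 libraries, and rpl31 had 1799 to 2057 in V2 and 3969 to 5811 in V3. Above were rps28, rpl34, rpl37, rps26, rpl32, rps15a, rpl36, rps18 and rps6. As both V2 libraries are the A libraries of the 2 earliest ages, chemistry and age can be set apart for these genes only through the B libraries of the same ages. For rpl14 these B libraries had 4029 CPM at 48 hpf and 3148 CPM at 72 hpf.

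Other symbols near the rule but outside it also encode ribosomal proteins or fusions with them. Over all cells rplp2l stood at 6757 CPM, RPL37A at 5216, faua at 5018 and faub at 9.58. The mean log2 ratio of rplp2 over rplp2l was below 0 in every group except the Mueller glia-like cells. Reads of such near-identical genes may have been split between them.

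The balance of paralogs differed between groups. The log2 ratio of rplp2 over rplp2l was 0.36, -0.33, 0.58 and 0.78 in Mueller glia-like cells of 72 hpf A, 120 hpf A, 120 hpf B and 144 hpf A, against -1.57, -2.89, -2.02 and -2.00 in progenitor-like cells. The difference was 2.47 ± 0.37 (SD, higher in 4 of 4). In neuron-like cells the ratio was 0.87 ± 0.61 above that of progenitor-like cells (6 of 6), and in progenitor-like cells 1.47 ± 0.51 below that of basal epithelial-like cells (9 of 9). These ratios use 2 genes of the same library and do not depend on the scaling.

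The ratio of rps27l to rps27.1 stood apart in opposite directions in the Mueller glia-like and neuron-like cells. The log2 ratio of rps27l over rps27.1 in Mueller glia-like cells was 2.23 ± 1.102 above that in progenitor-like cells (4 of 4), and in neuron-like cells it was 1.97 ± 0.85 below (lower in 6 of 6). In 96 hpf B and 120 hpf A neuron-like cells had 0 UMIs of rps27l, so that their ratios are set by the 0.5 added to each count, and the other 4 libraries had 1, 6, 18 and 11 UMIs. Over these 4 libraries the ratio was 1.47 ± 0.42 below (4 of 4). Between Mueller glia-like and neuron-like cells of the same libraries it differed by 3.95 ± 1.39 (higher in 4 of 4), and by 3.83 ± 1.67 without 120 hpf A. Rps27.2 over rps27.1 was 0.97 ± 0.54 higher in Mueller glia-like than in progenitor-like cells (4 of 4) and -0.12 ± 0.40 apart in neuron-like cells (2 of 6 higher). Rpl7l1 over rpl7 was 1.26 ± 0.90 lower in neuron-like than in progenitor-like cells (6 of 6; 0.96 ± 0.59 without 96 hpf B, which had 0 UMIs of rpl7l1 in neuron-like cells), and 0.999 ± 0.53 higher in progenitor-like than in basal cells (9 of 9).

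**Figure D5:**
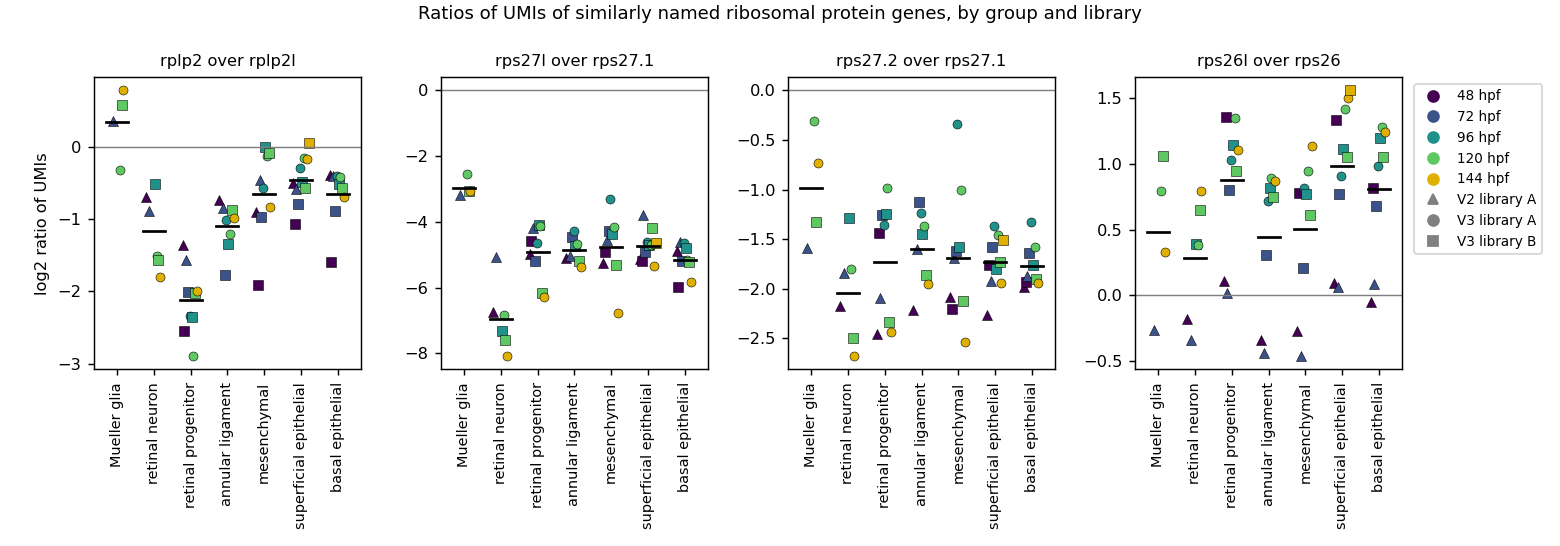
Log2 ratio of UMIs of 4 paralog pairs (vertical axis, 1 panel a pair) by marker-bearing group (horizontal axis), with 1 point a library and black lines for the mean. For rplp2 over rplp2l the mean is 0.35 in Mueller glia-like cells and -2.12 in retinal progenitor-like cells.

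Rps26l over rps26 was lower in annular ligament-like than in basal epithelial-like cells by 0.36 ± 0.08 (8 of 8) and in mesenchymal-like than in basal cells by 0.31 ± 0.18 (9 of 9). This ratio also moved with chemistry. In annular ligament-like cells it was -0.34 and -0.44 in the V2 libraries and between 0.31 and 0.89 in the V3 libraries, and in basal cells -0.05 and 0.09 in V2 and between 0.68 and 1.28 in V3. Rpl5b over rpl5a was 0.46 ± 0.25 higher in progenitor-like than in basal cells (9 of 9).

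Across cells of 1 group and library, the share was in most libraries higher in cells with more non-ribosomal UMIs. The rank correlation was above 0 in 8 of 9 libraries for progenitor-like cells (median 0.32), in 7 of 8 for annular ligament-like (0.42), in 8 of 9 for superficial (0.22), in 4 of 4 for neuron-like (0.41), in 2 of 3 for Mueller glia-like (0.32) and in 8 of 9 for basal cells (0.11). It was below 0 at -0.73 in Mueller glia-like cells of 120 hpf A, at -0.44 in basal and -0.21 in superficial cells of 48 hpf B, and nearer to 0 in the remaining exceptions. Cells of 1 library share its depth and chemistry, and these values are given as a description. In progenitor-like cells of 144 hpf A the mean share was 37.7% below 1000, 47.4% from 1000 to 3000 and 51.3% above 3000 non-ribosomal UMIs.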

How the data were processed

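UMI counts of GFP+ eye cells were analysed. The counts that the authors deposited are whole UMIs for each RefSeq record in each cell, without normalization, and come from Cell Ranger 6.0 with the GRCz11 genome. The submitters' protocol names V2 chemistry, whereas the deposited table of cells names V2 for 2 libraries and V3 for 8. Library, batch and chemistry were taken from that table, which gives other batch names for 96 hpf A in its joined form. That libraries are independent samples rests on the study's methods.

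The 16283 records were summed to 15413 symbols. A cell received a group where a marker list had at least 2 detected genes, a summed level of at least 1 per 10000 UMIs (each gene capped at its 0.95 quantile) and a lead of 1.5 over the next list. Of 127 markers 121 were found. The lead was within 1.25 to 1.75 for 883 cells inside and 902 outside. Members, gene lists and markers were chosen with earlier results of these data known, and the scoring rule was set after the data had been seen. Doublets were not called. All cells were kept.

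Shares are means over cells, then over libraries. Sums per library and group of at least 10 cells were tested with edgeR 4.0.16 in R 4.3.3 (TMM, filterByExpr, quasi-likelihood test, Benjamini-Hochberg over all genes, 0.05), with the library as a block between groups, or age as a linear term per day within a group. Named genes were the 6 called members of largest change in each direction with the same sign in every library, the 4 of largest slope, the 5 of highest CPM and the paralog pairs. The pair of rplp2 and rplp2l, the comparison of Mueller glia, the interaction of group and age and the batch as a block in the fits of age were added after the data had been seen. A few genes that these rules select are not reported here. The fits were tested on simulated data with a set spread between libraries. For neuron-like against progenitor-like cells, 16 of 83 genes changed by 1 on the log2 scale were recovered, and 72 of 79 changed by 2. For age in basal cells, 64 of 95 genes changed by 0.5 per day were recovered, and 98 of 98 changed by 1. Unchanged genes called were 4 and 12. Alternatives were DESeq2 1.42.0, library totals, no filter, the joined matrix that Cell Ranger had subsampled, other cell minimums, clustering without the members (23 Leiden clusters, leidenalg 0.10.2, Python 3.11.15) and left-out libraries. In that clustering 93.7% of 7806 cells with both names had the same group.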

Additional observations from a re-analysis of the deposited data

Results flagged for a closer look

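The difference in share between superficial and basal epithelial-like cells had opposite signs at different ages, with both libraries of an age on the same side. It was 8.57 points at 48 hpf and 2.62 at 72 hpf, against -3.88 at 96 hpf and -5.42 at 120 hpf. Gene by gene, 54 members changed with age in this difference by the edgeR interaction test with library totals, and 0 with TMM scaling.

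Mesenchymal-like cells were 15.5 points above basal cells at 48 hpf and -6.80 points from them at 96 hpf. The difference stood at 5.20 points in 144 hpf A. Here 0 members passed the interaction test on either scale, but its linear term cannot show a fall followed by a rise. The difference of the shares themselves was not tested.

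Outside the members, the record of a ribosomal RNA took 9.03% of the UMIs of 120 hpf A, against 0.0238% and 0.0291% in the V2 libraries. It enters the total of which shares are taken. Rplp2l stood at 6757 CPM over all cells, outside the rule for members.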

How the results depend on the processing

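With library totals alone the members called lower against basal cells were 1 for progenitor-like (34 higher), 0 for superficial, 0 for annular ligament-like and 0 for mesenchymal-like cells, and those rising with age were 39 in basal, 0 in superficial and 18 in annular ligament-like cells. Of named genes, rpl23a (0.039), rpl39 (0.13) and rpl19 (0.14) turned in progenitor-like, rpl15 (0.056), rps19 (0.13), rpl5a (0.13) and rpl11 (0.17) in annular ligament-like, and rps2 (0.034), rpl7 (0.081), rpl12 (0.14) and rpl26 (0.20) in mesenchymal-like against basal cells. Without a filter on low counts 49 members were lower in progenitor-like and 67 in annular ligament-like cells, and 3 rose in superficial cells. DESeq2 called 70 lower in annular ligament-like cells, and 6 over age in all sorted and 30 in superficial cells. Without V2 libraries 24 were lower in annular ligament-like cells and 0 rose in superficial cells. Without cells of a shared barcode, chosen after seeing the data, these were 26 and 5. Clusters made without the members gave 6 for annular ligament-like cells, 37 for the basal and 1 for the superficial trend, and could not give the mesenchymal comparison. The joined matrix gave 16 for mesenchymal-like cells, and age as a factor 2 in superficial cells. The share in neuron-like against progenitor-like cells was -8.18 points in clusters. That in pigment-like against progenitor-like cells was -16.8 from pooled UMIs, -15.1 from cells of at least 1000 UMIs, -14.6 in the joined matrix, -14.5 in clusters and -16.0 without the ribosomal RNA record. Leaving out 1 library gave 74 to 78 calls for progenitor-like, 77 to 79 for superficial, 15 to 68 for annular ligament-like and 9 to 72 for mesenchymal-like against basal cells, 78 to 80 for neuron-like and 78 to 79 for Mueller glia-like against progenitor-like cells, and over age 0 to 0 in all sorted, 24 to 63 in basal, 1 to 30 in superficial, 7 to 71 in annular ligament-like and 0 to 0 in progenitor-like cells. Shares ranged from 3.20 to 5.98, -1.80 to 0.47, 3.61 to 6.20 and 0.10 to 3.30 points for progenitor-like, superficial, annular ligament-like and mesenchymal-like against basal cells. They ranged from -14.6 to -12.2, -32.6 to -25.0 and -13.7 to -13.3 for neuron-like, Mueller glia-like and pigment-like against progenitor-like cells, and from -17.1 to -11.6 for Mueller glia-like against neuron-like cells. The cause of these changes was not tested. Apart from library totals, the share of all genes called in these alternatives is not given here or above. Their counts of members thus cannot be read as particular to the members. With the batch as a block, a fit chosen after seeing the data, the members rising with age were 0 in basal, 0 in superficial and 0 in annular ligament-like cells. No paired analysis by replicate number was possible because the labels number no replicates, and the comparisons of groups already take the library as a block.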

Other observations

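Pigment-like cells had the next lowest share after Mueller glia-like cells, 9.63% over 72 hpf B and 96 hpf A, against 23.1% in progenitor-like cells of the same libraries (lower in 2 of 2). The rplp2 over rplp2l ratio in these cells was 1.51 ± 0.29 above that in progenitor-like cells (2 of 2) on the log2 scale. Scaled to a common total of UMIs outside the members (as CPM without them), translation factor genes summed to 14979 in Mueller glia-like, 30267 in pigment-like, 52916 in neuron-like and 89718 in progenitor-like cells. Ribosome biogenesis genes summed to 1018, 1737, 1842 and 9532 in the same order. In clusters made without the members, the Mueller glia-like cluster had a mean share of 6.79% over 460 cells of 7 libraries.

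Of the 61 barcodes shared by 144 hpf B and 48 hpf B, 55 carried superficial epithelial markers in both. Profiles with the same barcode had a median correlation of 0.571 across genes, against 0.521 for other barcodes.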
